A study of Mus musculus with 4 samples.

Results

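p53 target genes were followed in the bone marrow of myeloma-bearing mice after an HDAC inhibitor. The members were 10 genes named by symbol (Cdkn1a, Mdm2, Bax, Bbc3, Pmaip1, Ccng1, Phlda3, Trp53inp1, Zmat3 and Sesn2), and all 10 were among the 32285 genes of the files. C57BL/KawRij mice had received 5TGM1-luc myeloma cells intravenously, and 3 weeks later they were given vehicle (2 mice) or 10 mg/kg PM (purinostat mesylate, an inhibitor of class I and IIb histone deacetylases; 2 mice). Marrow was taken 24 h after treatment, erythrocytes were lysed, and the remaining cells of each mouse gave 1 droplet-based 3' single-cell RNA library. Every mouse carried the same transplanted cell line and no mouse was free of myeloma, so the comparison is PM against vehicle within the disease model.

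p53 is a transcription factor that is stabilized when DNA is damaged or when other stresses reach the nucleus. Its targets stop the cell cycle, repair or protect the cell, or start apoptosis, and one of them, Mdm2, encodes the ligase that returns p53 to a low level. HDAC inhibitors are known to raise p21, the product of Cdkn1a, also in cells that lack p53. The question put to these data was whether the targets moved together under PM, as they do in a damage response, and in which marrow cells.

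p53 binds as a tetramer to pairs of a short palindromic half-site. Promoter windows, from 250 bases before to 50 after the RefSeq start, were read for 7 of the 10 members. The stretches below are shown because they hold each exact half-site found in these windows. They are RefSeq sequences of the build GRCm38.p6, printed 5′ to 3′ on the strand of the gene, with the half-site in capitals. They lie at chr17:29090886-29090951 (plus strand, Cdkn1a), chr10:117710899-117710964 (minus strand, Mdm2), chr7:45467054-45467119 (minus strand, Bax) and chr11:40755426-40755491 (minus strand, Ccng1).
Cdkn1a: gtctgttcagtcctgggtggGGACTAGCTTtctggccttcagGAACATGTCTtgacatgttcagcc
Mdm2: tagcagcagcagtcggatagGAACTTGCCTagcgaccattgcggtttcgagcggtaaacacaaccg
Bax: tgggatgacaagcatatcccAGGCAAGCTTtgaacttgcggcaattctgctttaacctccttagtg
Ccng1: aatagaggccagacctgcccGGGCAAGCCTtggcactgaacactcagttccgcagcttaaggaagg
The half-sites of Cdkn1a began 73 and 51 bases before the first of its 2 RefSeq starts. The window of its second start (chr17:29093519-29093818) held 0 exact half-sites. The half-site of Mdm2 began 186, that of Bax 201 and that of Ccng1 185 bases before the start. An exact half-site, read on both strands, was present in 2745 of 32851 promoter windows (8.36%), so a match by itself is common and is a description only. Windows were matched for 7 of the 10 members. Trp53inp1 and Zmat3 had no window to read. Pmaip1 was left out of the reading, so whether its promoter holds a half-site was not tested.

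After barcodes under 300 genes or over 20% mitochondrial UMIs were set aside, 39743 cells remained (17087 from vehicle and 22656 from PM mice), with 69828595 to 109447030 UMIs per library and a median of 4717 to 6067 UMIs per cell. Pairs of mice shared between 18 and 41 cell barcodes. The cells formed 31 clusters, and 23 classes had at least 10 cells in every mouse. Each name of a class means cells like that type by marker genes, and a leading gene is put before the name where a type was divided. Clonal plasma cells were the 171 plasma-like cells of which all had Ighg2b as leading heavy chain, and the other plasma cells were mixed. Called genes are those with a Benjamini-Hochberg adjusted p under 0.05 over all genes of a class and a log2 fold change beyond 0.5, by the edgeR quasi-likelihood test on summed UMIs. Levels are CPM, that is summed UMIs scaled to the effective library size, and errors of fold changes are standard errors. The p-values test a fold change against a variance estimated from 2 mice per group, with information shared over genes. An exact permutation test of 2 against 2 mice cannot give a two-sided p below 0.333 and was not used.

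The 10 targets did not rise together over the classes. Of 230 pairs of member and class, 153 had enough counts for the test and 77 did not, mostly pairs of Phlda3, Zmat3 or Sesn2. Called were 4 of the 153 tested pairs (2.61%), of which 2 were higher and 2 lower in PM. Over all genes and classes 1.93% of tests were called, 1.32% higher and 0.609% lower, so the share of the members lay near that of all genes. An unadjusted p under 0.05 was found for 22 pairs, against 12.8% of all tests. The groups of mice did not overlap in 49 pairs (32.0%), against 42.9% for all genes. Both PM mice lay above both vehicle mice in 30 of these pairs (19.6% of the tested ones, against 22.0% for all genes) and below in 19 (a smaller share than that of all genes), and in the other 104 pairs the groups overlapped. The log2 fold change was positive in 93 pairs and negative in 60, with a median of 0.09 (medians over all genes of a class lay between −0.01 and 0.03). With DESeq2 in place of edgeR, 2 pairs were called, Cdkn1a in F13a1 monocyte progenitors and Trp53inp1 in Vpreb3 B cells.

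The highest number of members with a positive log2 fold change, 8 of 9 tested, was found in erythroid cells and in DC, with 0 members called in either by edgeR. In erythroid cells Mdm2 was the exception, and the median was 0.32 against 0.01 over all genes of the class. Both PM mice were above both vehicle mice for 4 of the 9 (Cdkn1a, Bbc3, Phlda3 and Zmat3), against 23.3% of all genes, and below for 0. An unadjusted p under 0.05 was found for 3 of them (Cdkn1a, Phlda3 and Zmat3), against 14.2% of all genes, and 0.191% of all genes were called. Handling stress genes were also mostly positive in these cells (10 of 12 tested, 0 called by edgeR and 6 with an unadjusted p under 0.05), with a median of 0.62 and 0.0392% and 0.0336% of the UMIs under vehicle against 0.0433% and 0.0595% under PM, and their part in the values of the members was not tested. Of other p53 targets 12 of 22 tested were positive in erythroid cells (median 0.09). It was 5 of 13 for p53 and its regulators (−0.10) and 3 of 15 for DNA damage and repair genes (−0.41). Globin transcripts took 7.82% and 3.29% of the UMIs of erythroid cells under vehicle and 1.56% and 3.46% under PM, and their part was not tested. In DC Pmaip1 was the exception, the median was 0.13 and 0 members had an unadjusted p under 0.05. Members of a class share the same 4 mice, so their signs are not independent observations.

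**Figure D1:**
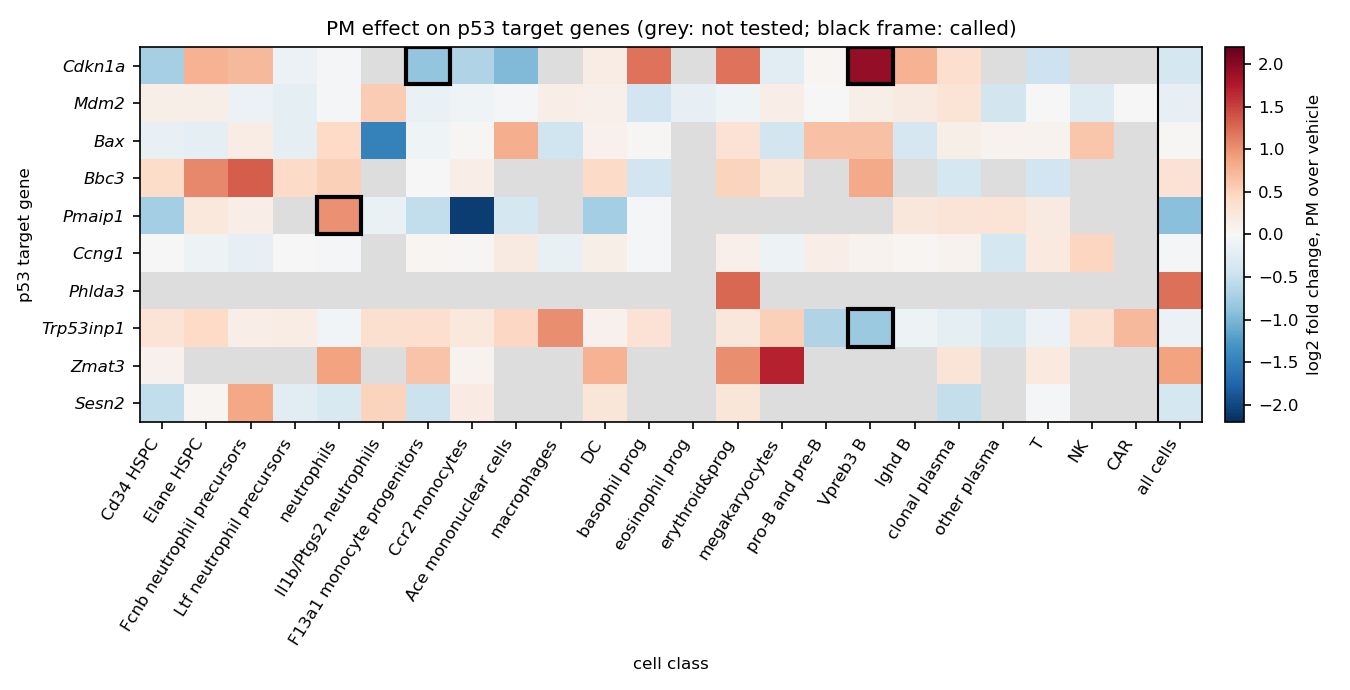
Log2 fold change, PM over vehicle, of the 10 p53 target genes (rows) in 23 cell classes and in all cells summed (columns), with red for higher and blue for lower in PM, grey for pairs with too few counts and a black frame for called pairs. The framed pairs are Cdkn1a in F13a1 monocyte progenitors and in Vpreb3 B cells, Trp53inp1 in Vpreb3 B cells and Pmaip1 in neutrophils, and no column with more than 2 tested genes is red throughout.

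Cdkn1a, which encodes the CDK inhibitor p21 and lies on chromosome 17 (GRCm38, 29090976-29100727, plus strand), was called as lower in 1 class and as higher in another, the second call resting on 1 library. In F13a1 monocyte progenitors it stood at 70.8 and 69.4 CPM in the vehicle mice and at 33.8 and 43.5 CPM in the PM mice. Both PM mice were below both vehicle mice, and the gene fell by 0.87 ± 0.13 on the log2 scale (adjusted p = 0.0295). In this class 0.849% of all genes were called. These sums rest on 1032 and 709 UMIs under vehicle and 707 and 461 under PM.

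The fall of Cdkn1a in monocyte progenitors rested partly on PM mouse 1. Without it the log2 fold change was −0.67 (adjusted p = 0.136), and after thinning every cell to 1000 UMIs it was −0.70 (adjusted p = 0.515). At least 1 Cdkn1a UMI was seen in 65.5% and 59.3% of these cells under vehicle and in 42.8% and 51.7% under PM. After thinning the shares were 8.78% and 6.59% against 3.33% and 7.02%, which overlap, and 0 cells were too shallow to be thinned. In neutrophils, the class with the lowest level, the unthinned share was between 0.429% and 0.715%, at a median of 3984 UMIs per cell against 24633 in the progenitors. Genes of handling stress (13 of 13 present, Fos and Jun among them) took 0.236% and 0.220% of the UMIs of the progenitors under vehicle and 0.105% and 0.216% under PM. PM mouse 1 was lowest in both, and the part of handling stress in the Cdkn1a result was not tested.

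In Vpreb3 B cells Cdkn1a was called as higher, at 25.5 and 2.75 CPM under vehicle and 18.9 and 32.0 CPM under PM. The groups overlapped, because vehicle mouse 1 lay between the PM mice. The log2 fold change was 1.93 ± 0.55 (adjusted p = 0.00854) in a class where 8.50% of all genes were called. It rested on 6, 4, 18 and 25 UMIs, and without vehicle mouse 2 it was −0.02, so that 1 library decided the call. It was also lost without PM mouse 1 (adjusted p = 0.0539), without PM mouse 2 (adjusted p = 0.453) and with DESeq2 (log2 fold change 1.02, adjusted p = 1.00). Vpreb3 B cells were unevenly sampled, with 91 and 563 cells under vehicle and 384 and 252 under PM.

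**Figure D2:**
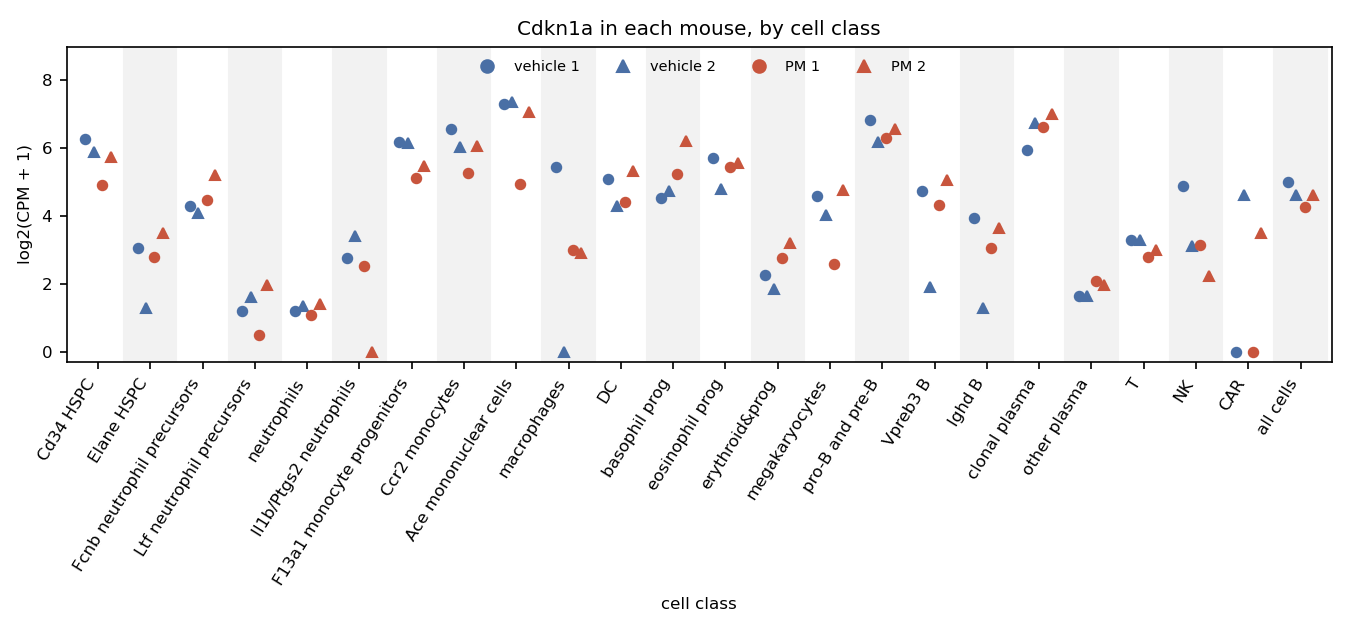
Cdkn1a level per mouse as log2(CPM + 1) in each cell class, with circles for mouse 1 and triangles for mouse 2, blue for vehicle and red for PM. The PM mice lie below the vehicle mice in F13a1 monocyte progenitors, while in Vpreb3 B cells the vehicle mice at 25.5 and 2.75 CPM enclose PM mouse 1.

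Other classes showed differences of Cdkn1a that did not pass the test, some of which passed it under other settings. In Fcnb neutrophil precursors the levels were 18.6 and 15.9 CPM under vehicle and 21.3 and 36.0 CPM under PM (log2 fold change 0.71 ± 0.25, adjusted p = 0.214). In basophil progenitors they were 22.0 and 25.5 against 37.0 and 72.2 CPM (1.19 ± 0.34, adjusted p = 0.218), and in erythroid cells 3.79 and 2.62 against 5.78 and 8.15 CPM (1.19 ± 0.43, adjusted p = 0.285). In each of these 3 classes both PM mice were above both vehicle mice. The difference in Fcnb neutrophil precursors was called without PM mouse 1 (1.05), without vehicle mouse 1 (0.84), without vehicle mouse 2 (0.60) and without the filter on low counts (0.69), while without PM mouse 2 it was 0.30 and not called. That in basophil progenitors was called without PM mouse 1 (1.61). In Ace mononuclear cells the order was the opposite, with 157 and 163 CPM under vehicle and 29.9 and 132 CPM under PM (−0.98 ± 0.50, adjusted p = 0.80). The same order was seen in Cd34 HSPC (76.1 and 58.2 against 29.2 and 51.8 CPM, −0.73 ± 0.28, adjusted p = 0.763). Handling stress genes took 1.36% and 1.03% of the UMIs of Ace mononuclear cells under vehicle and 0.446% and 0.925% under PM. In Cd34 HSPC the shares were 0.419% and 0.327% against 0.143% and 0.257%. PM mouse 1 was lowest in both classes, as for Cdkn1a, and the part of handling stress in these Cdkn1a values was not tested. Cdkn1a was called in Ace mononuclear cells without PM mouse 2 (−2.41), and in Cd34 HSPC without PM mouse 2 (−1.20), without vehicle mouse 2 (−0.91), without the filter (−0.74) and without called doublets (−0.81), but not without PM mouse 1 (−0.38). In Ccr2 monocytes it was called without vehicle mouse 2 (−0.91) and without the filter (−0.68). In clonal plasma cells, where a response of the tumor compartment would be looked for, Cdkn1a stood at 60.6 and 107 CPM under vehicle and at 96.8 and 128 CPM under PM. The groups overlapped and the log2 fold change was 0.37 ± 0.24 (adjusted p = 0.760). Of the 9 members tested in clonal plasma cells, edgeR and DESeq2 each called 0 and 0 had an unadjusted p under 0.05, where 0.643% of all genes were called.

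Ccng1, which encodes cyclin G1 and lies on chromosome 11 (40748552-40755311, minus strand), moved least with Mdm2. It was tested in 20 classes, its log2 fold changes ran from −0.39 to 0.46, and its lowest adjusted p was 0.514. In neutrophils it stood at 20.4 and 19.2 CPM under vehicle and at 19.5 CPM in both PM mice, and in all cells summed at 35.0, 36.7, 35.1 and 35.2 CPM. These levels hardly differed between the 4 mice.

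Mdm2, the p53 ligase that is itself a p53 target (chromosome 10, 117688875-117710758, minus strand), was tested in all 23 classes and called in none. Its log2 fold changes ran from −0.42 to 0.56 and were negative in 13 classes. The lowest adjusted p, 0.284, belonged to Ltf neutrophil precursors, with 96.6 and 94.1 CPM under vehicle and 80.6 and 83.1 CPM under PM. In neutrophils, with 1001 to 2007 UMIs per mouse, the levels were 96.3 and 85.8 against 86.3 and 92.3 CPM, a log2 fold change of −0.03 ± 0.12 (adjusted p = 0.887). The groups overlapped there. No Mdm2 pair reached an unadjusted p under 0.05, and the same was true of Ccng1.

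Among the apoptosis genes, Pmaip1 was the one that was called. Pmaip1 encodes NOXA, a BH3-only protein that neutralizes MCL1. In neutrophils it stood at 2.78 and 4.29 CPM under vehicle and at 6.78 and 7.08 CPM under PM. The PM mice were the 2 highest, and the log2 fold change was 1.01 ± 0.24 (adjusted p = 0.0302) where 10.7% of all genes were called. The sums were 58 and 50 UMIs against 126 and 126 UMIs, over 2452 to 4897 cells per mouse. The call was lost without vehicle mouse 1 (log2 fold change 0.68, adjusted p = 0.154) and with DESeq2 (adjusted p = 0.0626).

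The direction of Pmaip1 in neutrophils depended on where the neutrophils were divided. A cluster of 953 neutrophils led by Il1b and Ptgs2 held Pmaip1 at 387 and 424 CPM under vehicle and at 338 and 401 CPM under PM, far above the other neutrophils, and Pmaip1 is itself among its leading genes. It numbered 229 and 443 cells under vehicle, and 156 and 125 under PM. With this cluster joined to the other neutrophils, a division chosen after seeing the data, the log2 fold change was −1.07 (adjusted p = 0.338).

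The lowest log2 fold change of Pmaip1 belonged to Ccr2 monocytes. There it stood at 70.9 and 77.2 CPM under vehicle and at 8.03 and 30.6 CPM under PM. The PM mice were below both vehicle mice, and they also differed from each other, so that the log2 fold change of −2.10 ± 0.79 did not pass the test (adjusted p = 0.446). Without PM mouse 2 it was −3.21 (adjusted p = 0.00129), and Pmaip1 was then also called in DC (−1.88) and F13a1 monocyte progenitors (−1.54). Handling stress genes took 0.843% and 0.774% of the UMIs of these cells under vehicle and 0.289% and 0.676% under PM, with PM mouse 1 lowest and PM mouse 2 next as for Pmaip1, and their part in the Pmaip1 values was not tested. In DC the values were 70.7 and 69.8 against 19.0 and 71.7 CPM, where PM mouse 1 alone was low (−0.74 ± 0.77, adjusted p = 0.877). In all cells summed Pmaip1 was at 18.0 and 19.6 CPM under vehicle and at 7.13 and 12.8 CPM under PM (−0.92 ± 0.27, adjusted p = 0.333). In such sums fewer cells of a type and less RNA per cell cannot be told apart.

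**Figure D3:**
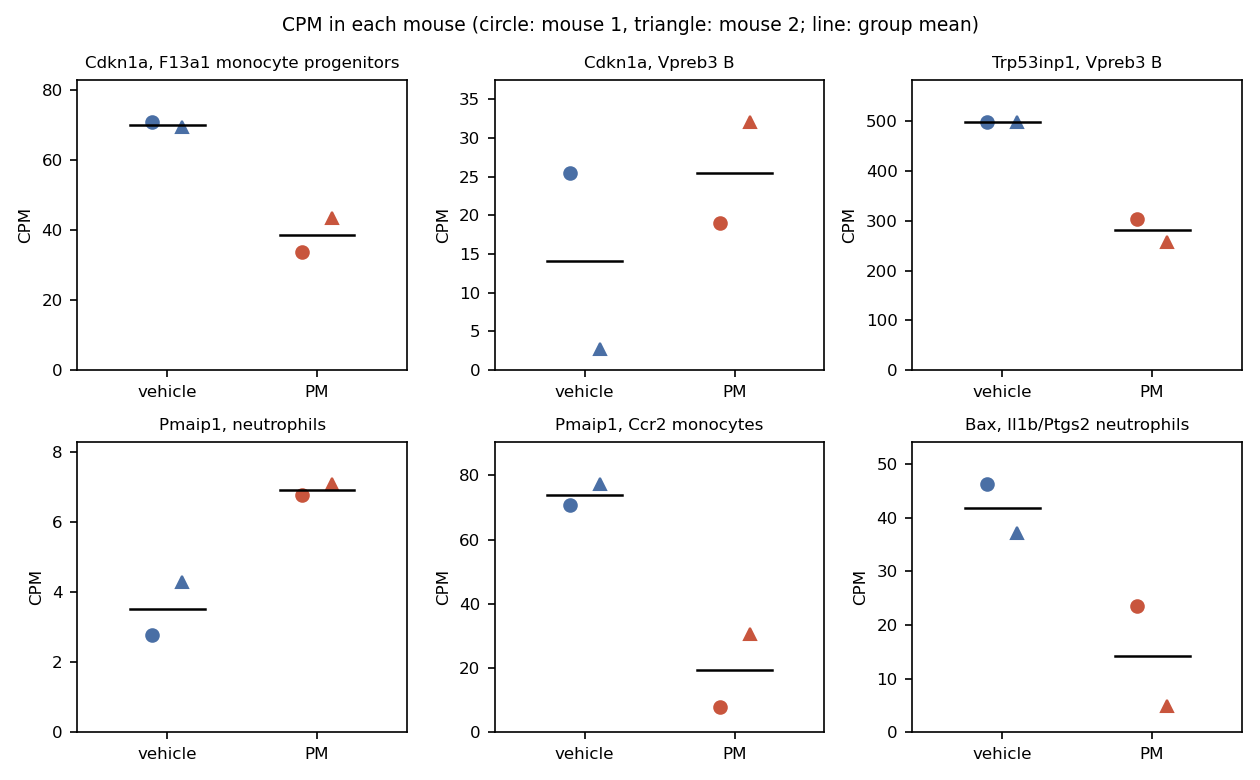
CPM per mouse for 6 pairs of gene and class (Cdkn1a in F13a1 monocyte progenitors and Vpreb3 B cells, Trp53inp1 in Vpreb3 B cells, Pmaip1 in neutrophils and Ccr2 monocytes, Bax in Il1b/Ptgs2 neutrophils), with a line at the mean of each group of 2 mice. The groups are apart in 5 panels and overlap for Cdkn1a in Vpreb3 B cells.

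Bax, the pore-forming protein of mitochondrial apoptosis (chromosome 7, 45461697-45466898, minus strand), was tested in 21 classes and called in none. In Il1b/Ptgs2 neutrophils it stood at 46.2 and 37.2 CPM under vehicle and at 23.5 and 4.95 CPM under PM, on 24, 35, 5 and 1 UMIs. PM gave the lower values (log2 fold change −1.49 ± 0.60, adjusted p = 0.233). In Vpreb3 B cells it was the reverse, at 34.0 and 42.0 against 60.0 and 66.6 CPM, with both PM mice higher (0.64 ± 0.28, adjusted p = 0.142). A predicted gene on the same strand overlaps Bax, and reads in the shared part cannot be assigned to 1 of them with certainty.

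Bbc3 encodes PUMA, the BH3-only protein that p53 uses most directly for apoptosis (chromosome 7, 16308393-16318205, plus strand). It was positive in 11 of 14 tested classes and called in none. In Fcnb neutrophil precursors it stood at 1.75 and 1.18 CPM under vehicle and at 3.73 and 3.87 CPM under PM, on 11 to 52 UMIs per mouse. Both PM mice were above both vehicle mice, and the log2 fold change of 1.33 ± 0.33 just missed the threshold (adjusted p = 0.0566). It passed without vehicle mouse 1 (1.68), without the filter on low counts (1.31, adjusted p = 0.0109) and with called doublets left out (1.45, adjusted p = 0.0437). Crossed replicate numbers also let it pass (1.36, adjusted p = 0.0158). It did not pass with DESeq2 (1.34, adjusted p = 0.250), a replicate block (1.34, adjusted p = 0.105), RLE scaling or a stricter filter on cells. Nor did it pass without PM mouse 1 (1.35), PM mouse 2 (1.31) or vehicle mouse 2 (1.10). In neutrophils the levels were 7.0 and 7.11 against 9.04 and 11.2 CPM, with both PM mice higher (0.52 ± 0.19, adjusted p = 0.0967). In T cells, which held the highest Bbc3 level, the groups overlapped at 35.2 and 50.8 against 24.4 and 41.2 CPM.

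Phlda3, which encodes an inhibitor of AKT (chromosome 1, 135766119-135769136, plus strand), was the least detected member. No UMI of it was found in Elane HSPC, Il1b/Ptgs2 neutrophils, Ltf neutrophil precursors, clonal plasma cells, macrophages or neutrophils of any mouse. Only the erythroid class held enough counts for a test. There it stood at 2.17 and 3.43 CPM under vehicle and at 8.83 and 5.57 CPM under PM, on 4, 17, 55 and 28 UMIs. Both PM mice were above both vehicle mice (log2 fold change 1.26 ± 0.44, adjusted p = 0.272).

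Zmat3, an RNA-binding zinc finger protein that acts in p53-dependent growth suppression (chromosome 3, 32334792-32366014, minus strand), was called in none of the classes. Its log2 fold change was positive in 9 of 9 tested classes, from 0.07 to 1.69 with a median of 0.63. Both PM mice were above both vehicle mice in 6 of these 9 classes, against 22.0% of all tests, and below them in 0. Over all 23 classes it was 12 above and 0 below. That count includes classes with too few counts for the test, such as macrophages with 11 UMIs, and has no share of all genes beside it. The classes come from the same 4 mice and are not independent observations. In erythroid cells Zmat3 stood at 8.12 and 8.68 CPM under vehicle and at 21.2 and 13.1 CPM under PM (1.02 ± 0.32, adjusted p = 0.237), and it was called there without the filter on low counts (1.05, adjusted p = 0.0272). In megakaryocytes it stood at 6.81 and 1.79 against 8.17 and 17.1 CPM (1.69 ± 0.71, adjusted p = 0.940). With the B cells not divided, a choice made after seeing the data, Zmat3 was called in them (1.70, adjusted p = 0.0176).

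In all cells summed, Zmat3 was at 2.96 and 3.01 CPM under vehicle and at 5.75 and 5.30 CPM under PM. The groups were well apart, the log2 fold change being 0.89 ± 0.16 and an unadjusted p of 0.00197 by the edgeR quasi-likelihood test (adjusted p = 0.204). With DESeq2 it was called (0.86, adjusted p = 0.0135). The makeup of the marrow differed as well. T cells, one of the classes with the highest Zmat3 level, were 2.28% and 2.62% of the cells under vehicle and 5.40% and 5.08% under PM, and they gave 24 of 232 and 23 of 209 Zmat3 UMIs under vehicle and 96 of 635 and 62 of 418 under PM. The part of these shares in the summed level was not tested. The test of the summed marrow called 0 of 10 members, and 0.0128% of all genes (2 of 15581). An unadjusted p under 0.05 was reached by 4 members, Zmat3, Pmaip1, Sesn2 and Phlda3, against 12.8% of all genes. They did not share a direction, as Pmaip1 was lower in PM. The log2 fold change was positive for 4 of the 10 members, with a median of −0.08 (0.02 over all genes). Both PM mice were above both vehicle mice for 3 members and below for 3, against 27.2% and 21.6% of all genes.

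**Figure D4:**
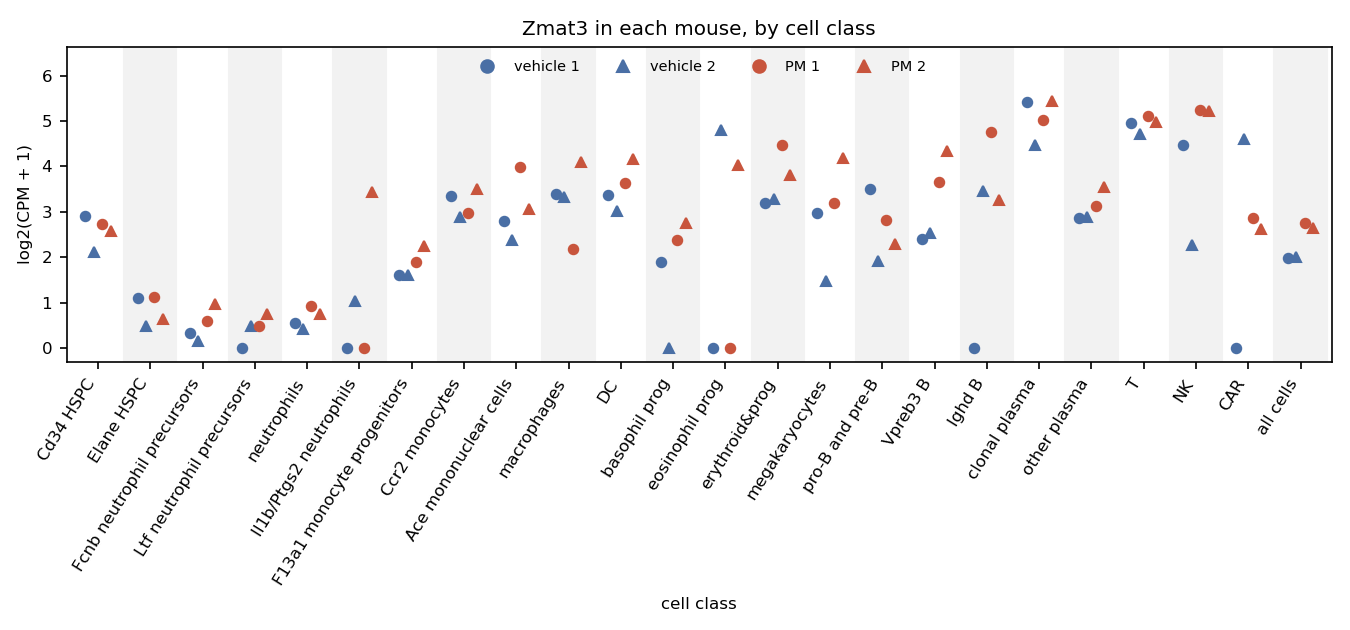
Zmat3 level per mouse as log2(CPM + 1) in each cell class, with circles for mouse 1 and triangles for mouse 2, blue for vehicle and red for PM. Both red points lie above both blue points in 12 of 23 classes, which share the same 4 mice, and below them in 0. Some of these classes had too few counts for the test. Of the 9 tested classes this holds in 6, against 22.0% of all tests.

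Trp53inp1, a stress-induced nuclear protein that takes part in p53-dependent arrest and autophagy (chromosome 4, 11156431-11174379, plus strand), gave the most stable of the called pairs. In Vpreb3 B cells it stood at 498 CPM in both vehicle mice and at 304 and 258 CPM in the PM mice. The groups were far apart, and the gene fell by 0.82 ± 0.17 on the log2 scale (adjusted p = 3.45e-05). The call held in each alternative that kept this class, with adjusted p from 8.53e-06 to 0.0237. In pro-B and pre-B cells the values were 242 and 184 against 140 and 118 CPM, again with both PM mice lower (−0.66 ± 0.23, adjusted p = 0.123), but after thinning the log2 fold change there was 0.20. In macrophages, with 12 to 71 UMIs per mouse, the order was the opposite at 57.1 and 132 against 249 and 155 CPM (1.02 ± 0.36, adjusted p = 0.406), and without vehicle mouse 2 it was called (1.85, adjusted p = 0.000787).

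Sesn2, a sestrin that restrains mTORC1 and is also induced by the integrated stress response (chromosome 4, 132492032-132510501, minus strand), was called in none of 12 tested classes. In neutrophils it stood at 51.9 and 54.3 CPM under vehicle and at 42.1 and 42.2 CPM under PM. Mice of a group were nearly equal and both PM mice were lower, but the log2 fold change of −0.33 ± 0.11 missed the threshold (adjusted p = 0.0791). In F13a1 monocyte progenitors the values were 10.8 and 10.1 against 7.80 and 7.17 CPM (−0.47 ± 0.18, adjusted p = 0.297), and in Fcnb neutrophil precursors 2.36 and 1.83 against 4.74 and 2.80 CPM (0.85 ± 0.35, adjusted p = 0.239). The groups were apart in both, in opposite directions. Another annotated gene on the same strand overlaps Sesn2, and reads in the shared part cannot be assigned to 1 of them with certainty.

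Whether a PM effect differed between cell types was tested as an interaction, with the effect in 1 class set against the mean effect of the other classes in a fit over 23 classes. Pmaip1 and Phlda3 were at 0 in a whole group of mice in some class and were left out of this fit, which left 184 pairs of 8 members. Of these, 2 were called, against 1.42% of all tests. For Trp53inp1 in Vpreb3 B cells the log2 difference of the PM effect from that elsewhere was −1.04 ± 0.25 (adjusted p = 0.00917). In this class 2.60% of genes were called. For Bax in Il1b/Ptgs2 neutrophils the difference of the PM effect was −1.96 ± 0.56 (adjusted p = 0.0210), where 7.33% of genes were called. Leaving out either PM mouse ended both calls, leaving out vehicle mouse 1 ended that of Bax, and leaving out vehicle mouse 2 or the called doublets ended that of Trp53inp1. With the genes at 0 in a group kept, a choice made after seeing the data, both remained called and Pmaip1 in neutrophils was added (adjusted p = 0.0325), in a contrast whose size (1.62) is not determined, since it includes a class at 0. Cdkn1a, called in opposite directions in monocyte progenitors and Vpreb3 B cells, was not called as different in either (−0.76 ± 0.31, adjusted p = 0.459, and 2.15 ± 0.77, adjusted p = 0.148).

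The levels of the members across classes were more unequal than their differences under PM, and are given as means of the 4 mice. Trp53inp1 was highest in the other plasma cells (595 CPM, 516 to 720), followed by clonal plasma cells (417 CPM) and Vpreb3 B cells (389 CPM), and lowest in F13a1 monocyte progenitors (10.3 CPM). These 3 highest classes overlapped in order, each with the next. Pmaip1 was highest in Il1b/Ptgs2 neutrophils (388 CPM, 338 to 424) and next in Ace mononuclear cells (272 CPM, 134 to 337), and these neighbors did not overlap. Sesn2 was highest in the same neutrophils (143 CPM, 104 to 207), apart from the other neutrophils at 47.6 CPM. Cdkn1a was highest in Ace mononuclear cells (121 CPM, 29.9 to 163) and clonal plasma cells (98.1 CPM), which overlapped, and lowest in neutrophils (1.40 CPM). Mdm2 spanned the narrowest range by the ratio of the highest to the lowest level, from 97.6 CPM in Il1b/Ptgs2 neutrophils to 43.9 CPM in erythroid cells. Bax ran from 85.9 CPM in clonal plasma cells to 6.03 CPM in neutrophils. Ccng1 was highest in macrophages (102 CPM), apart from DC at 73.9 CPM. Zmat3 was highest in clonal plasma cells (34.2 CPM) and T cells (29.9 CPM), which overlapped. No test was made between classes, since the classes were formed from the same counts.

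**Figure D5:**
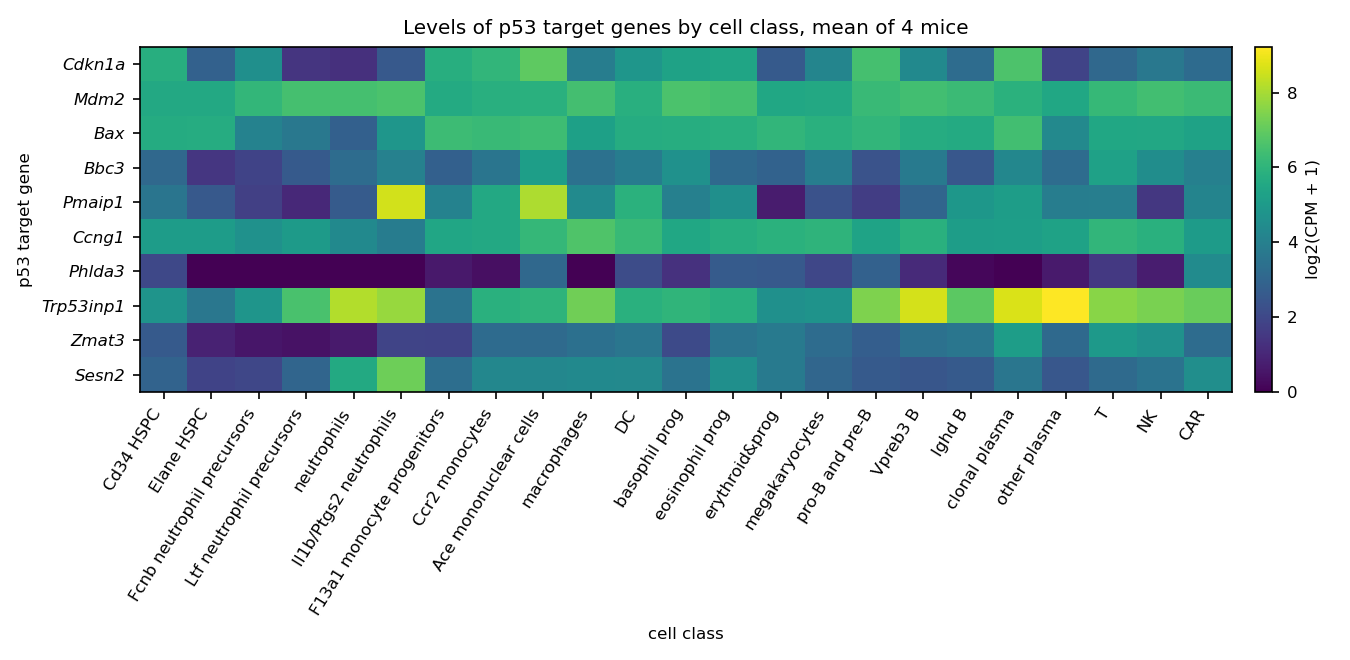
Mean level of the 10 p53 target genes (rows) in 23 cell classes (columns), as log2(CPM + 1) of the mean CPM of the 4 mice. Trp53inp1 in plasma cells (595 CPM in the other plasma cells) and Pmaip1 in Il1b/Ptgs2 neutrophils (388 CPM) are at the yellow (high) end of the colour scale, and Phlda3 is near 0, at the dark end, in most classes.

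Across the 92 profiles of mouse and class, and among 8972 genes whose mean reached 10 CPM, the genes whose log2(CPM + 1) followed Cdkn1a most closely were Utp3 (Pearson r = 0.72), Hspa8 (0.69) and Snrpb (0.68). Those nearest to Mdm2 were Map4k2 (0.73), AI467606 (0.72) and Tcp11l2 (0.69). Bax was followed most closely by Tcof1 (0.85), Mrps33 (0.84) and Emc6 (0.83). None of these 9 genes is a member, and the profiles share mice and library depth.

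Trp53 itself, the gene of p53, was called in no class. In Ccr2 monocytes it stood at 36.2 and 42.3 CPM under vehicle and at 60.7 and 54.1 CPM under PM, with both PM mice higher (log2 fold change 0.56 ± 0.15, adjusted p = 0.0699). In all cells summed Trp53 was at 46.7 and 56.1 against 74.3 and 62.3 CPM (0.41 ± 0.14, adjusted p = 0.369). Of its regulators, Chek1, a checkpoint kinase, was called in Ccr2 monocytes, at 0.627 and 0.713 against 3.53 and 6.05 CPM (2.74 ± 0.59, adjusted p = 0.0243). It was the single call in 240 tests of the 15 genes of p53 and its regulators (0.417%), against 1.93% of all tests. The counts of calls in the lists below are to be read against the same share of all tests.

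A wider list of 29 other p53 targets gave 14 calls in 375 tests (3.73%), 10 higher and 4 lower, with a median log2 fold change of 0.05. Cd80, a costimulatory ligand, accounted for 4 of the 10, in Ccr2 monocytes (log2 fold change 1.48), Fcnb and Ltf neutrophil precursors (1.28 and 1.35) and neutrophils (1.41). In neutrophils Cd80 stood at 8.63 and 11.7 CPM under vehicle and at 23.9 and 29.2 CPM under PM, with the groups well apart. Polk, a translesion DNA polymerase, was higher in Ltf neutrophil precursors (1.32) and neutrophils (1.73). Perp was higher in Ltf neutrophil precursors (2.25), Ei24 in neutrophils (0.85) and Xpc, a damage sensor of nucleotide excision repair, in F13a1 monocyte progenitors (0.79). In neutrophils 3 of the 23 tested genes of the list were called, against 10.7% of all genes. In F13a1 monocyte progenitors it was 1 of 25, against 0.849% of all genes.

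The 4 lower calls of these targets were in Vpreb3 B, pro-B and pre-B, and Ighd B cells, where 8.50%, 2.22% and 1.95% of all genes were called. Btg2, an antiproliferative gene, was lower in Vpreb3 B cells (−1.13) and in pro-B and pre-B cells (−1.37), but higher in Fcnb neutrophil precursors (0.60). In Vpreb3 B cells Btg2 stood at 1063 and 1060.3 CPM under vehicle and at 511 and 456.1 CPM under PM, which are far apart. Rrm2b, a subunit of ribonucleotide reductase, was lower in Vpreb3 B cells (−0.95), and Ephx1 in Ighd B cells (−0.89).

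DNA damage and repair genes gave 5 calls in 250 tests (2.0%), 4 of them higher, with a median log2 fold change of 0.01. Rpa2, a part of the complex that coats single-stranded DNA, was higher in Ccr2 monocytes (0.96). Pcna, the sliding clamp of DNA replication, was higher in neutrophils (0.54), where 10.7% of all genes were called. In Vpreb3 B cells Gadd45g was higher (0.98) and Gadd45a, which p53 induces, was lower (−0.83).

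Cell cycle genes that p21 represses gave 6 calls in 299 tests (2.01%), 5 lower and 1 higher. Their log2 fold change was positive in 79 tests, and the median was −0.25. Ccnb2 (−1.83), Cdc20 (−1.88), Cenpf (−1.36) and Mki67 (−1.42) were lower in Vpreb3 B cells. Mki67 stood there at 191 and 144 CPM under vehicle and at 52.6 and 66.6 CPM under PM. Cenpf was lower in clonal plasma cells (−0.80, adjusted p = 0.0496), at 204 and 198 against 131 and 95.7 CPM. In clonal plasma cells 0 of the 18 tested genes of the list were positive, the median was −0.62 and 16 had an unadjusted p under 0.05. In F13a1 monocyte progenitors, where Cdkn1a was called as lower, it was also 0 of 18 (median −0.31, 11 with such a p). The same was seen in erythroid cells (0 of 18, −0.50, 11), DC (0 of 18, −0.54, 4) and NK cells (0 of 11). Most were positive in Ccr2 monocytes (12 of 18) and Cd34 HSPC (11 of 18). In neutrophils 15 of 17 were positive (median 0.51) and in the other plasma cells 11 of 11 (median 0.92), with 0 called by edgeR and an unadjusted p under 0.05 for 5 and 6 of them, and the difference between these classes was not tested for the list. Ube2c was higher in Ccr2 monocytes (0.64). The other CDK inhibitors gave 3 calls in 65 tests, and all were lower. These were Cdkn1b (−0.93) and Cdkn2c (−1.36) in pro-B and pre-B cells and Cdkn2d (−0.68) in F13a1 monocyte progenitors.

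The other BCL-2 family genes gave 6 calls in 167 tests, 3 in each direction. In Vpreb3 B cells the survival gene Bcl2 was higher (1.2) while Bcl2l1, which encodes BCL-XL, was lower (−1.88). Bcl2l11, which encodes BIM, was lower in Vpreb3 B cells (−1.12) and Ccr2 monocytes (−1.04). Bmf and Bcl2l2 were higher in neutrophils (1.05 and 1.51), where 10.7% of all genes were called. Genes of the integrated stress response, which shares Sesn2 with the members, gave 4 calls in 114 tests, and its median log2 fold change was −0.31. Asns was lower in Fcnb and Ltf neutrophil precursors (−1.11 and −0.94), Ddit4 was lower in Cd34 HSPC (−1.81) and Trib3 was higher in neutrophils (1.25).

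H1f0, a linker histone gene that HDAC inhibitors are known to raise, was called as higher in 4 classes. It rose in Elane HSPC (1.08), Fcnb neutrophil precursors (1.73), Ltf neutrophil precursors (1.67) and neutrophils (1.91). In Fcnb neutrophil precursors H1f0 stood at 56.3 and 69.8 CPM under vehicle and at 218 and 200.5 CPM under PM, with the groups far apart. Of the HDAC genes, Hdac8 was lower in Vpreb3 B cells (−1.13) and in pro-B and pre-B cells (−1.67), which brings the list to 6 calls in 118 tests. Handling stress genes gave 12 calls in 248 tests, 7 higher and 5 lower. Among them Fos was higher in neutrophils (0.92) and Ltf neutrophil precursors (1.30) and lower in pro-B and pre-B cells (−1.5), and Jun was higher in neutrophils (1.04) and lower in Vpreb3 B cells (−1.0). Egr1 was higher in neutrophils (2.30) and Il1b/Ptgs2 neutrophils (1.19), Fosb in Ltf neutrophil precursors (1.44) and Hspa1b in neutrophils (1.78). Dusp1 (−1.12) and Zfp36 (−0.55) were lower in Vpreb3 B cells, and Ier2 in Ighd B cells (−0.64). Of the 3 classes with a called member, handling stress genes gave 4 calls in neutrophils, 3 in Vpreb3 B cells and 0 of 13 by edgeR in F13a1 monocyte progenitors (median −0.18, 2 with an unadjusted p under 0.05). Their part in the results of the members was not tested. Neutrophil transcripts that can float free in the suspension (6 genes, 138 tests) gave 0 calls by edgeR, with an unadjusted p under 0.05 in 19 tests. Those of erythroid cells gave 2 of 79, Hba-a2 in Fcnb neutrophil precursors (1.01) and Hbb-bt in Ighd B cells (2.06). Both counts include the neutrophil and erythroid classes themselves. The neutrophil transcripts were not even between the groups in every other class. In Ace mononuclear cells they took 0.562% and 1.99% of the UMIs under vehicle and 3.06% and 4.80% under PM, with 6 of 6 positive. In NK, Ighd B, and pro-B and pre-B cells 0 of 6 were positive. Their part in the values of the members was not tested.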

How the data were processed

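Single-cell 3' RNA libraries of bone marrow from 2 vehicle and 2 PM mice were analysed, 1 library per mouse, and the mice were grouped and numbered as in the sample titles. The authors deposited raw counts, that is UMIs per gene and barcode without normalization, made with Cell Ranger; the methods name GRCm38 and the submitters' processing notes GRCm39, and gene positions are given for GRCm38. Barcodes under 300 genes or over 20% mitochondrial counts were set aside, and the others were clustered without integration (scanpy 1.11.5, 2500 variable genes, 30 components, 15 neighbors, leidenalg 0.10.2 at a resolution of 1). Clusters were named from marker lists with at least 3 raised markers. Doublets were scored against simulated doublets, and the top scores, 0.8% per 1000 barcodes, were called; they were kept, and left out in an alternative.

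UMIs were summed per mouse and class and tested with edgeR 4.0.16 under R 4.3.3 (TMM, filterByExpr, robust quasi-likelihood fit, condition only). Standard errors are the log2 fold change divided by the root of the F statistic, and CPM use effective library sizes. The interaction fit had mouse, class and class by condition as terms. Genes at 0 in all mice of a group in some class have no finite contrast and were left out of it, a filter chosen after seeing the data. The scripts were tested on simulated data. All 10 members were named in tested classes, with Trp53, each called gene of the lists given in the text, and the 3 genes most alike to Cdkn1a, Mdm2 and Bax. The members and lists were chosen with earlier results of these data known. Alternatives were DESeq2 1.42.0, RLE scaling, no filter on low counts, a replicate block, each mouse left out, called doublets left out, a stricter filter on cells, thinning to 1000 UMIs and, chosen after seeing the data, other divisions of the clusters, crossed replicate numbers and the interaction with the genes at 0 kept. The standard errors include the spread between mice as estimated by the fit, and UMI counts and shares of cells are given without an error. Nothing in the labels says whether mice of a group were kept or handled together. Counts over the gene lists include all tested genes of a list, of which some are not reported here by name.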

Additional observations from a re-analysis of the deposited data

Results flagged for a closer look

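By the interaction test of edgeR, the PM effect in 1 class differed from the mean of the other classes in 2 of 184 pairs. Over all genes 1.42% of tests were called, with 7.33% in Il1b/Ptgs2 neutrophils and 2.60% in Vpreb3 B cells. Both calls ended when either PM mouse was left out. For Bax in Il1b/Ptgs2 neutrophils the log2 difference was −1.96, on 24 and 35 UMIs under vehicle and 5 and 1 under PM, with both PM mice below both vehicle mice. For Trp53inp1 in Vpreb3 B cells it was −1.04, with both PM mice below both vehicle mice at 117, 724, 289 and 201 UMIs in vehicle mice 1 and 2 and PM mice 1 and 2. Groups of 2 mice are too small for a check for outlying mice.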

How the results depend on the processing

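The 4 calls of members became 2 with DESeq2, 2 after thinning, 2 with marker types not divided, 9 without a filter on low counts and 8 with crossed replicate numbers, and ranged from 4 to 8 when single mice were left out. The 0 calls in summed marrow became 1 with DESeq2. Over all genes and classes the 3599 calls became 2017 with DESeq2, 1282 after thinning, 7692 without the filter and 5563 with crossed numbers, and ranged from 2989 to 5691 without single mice. The 2 calls of all genes in summed marrow became 259 with DESeq2, 150 without the filter, 8 after thinning and 0 with crossed numbers, and ranged from 0 to 199 without single mice. The 2 called differences between classes became 3 with the genes at 0 kept (Pmaip1 in neutrophils was the third) and 1 with called doublets left out, and ranged from 0 to 1 without single mice. Where a group kept 1 mouse, that mouse was assumed to vary like the other group.

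Directions turned for Cdkn1a in Vpreb3 B cells without vehicle mouse 2 (−0.018, in a range up to 3.12 without single mice), for Pmaip1 in neutrophils with marker types not divided or with the Il1b/Ptgs2 cluster joined (−1.07 in both) and for Trp53inp1 in pro-B and pre-B cells after thinning (0.20). The cause was not tested.

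With a replicate block, 3 pairs of member and class were called (Pmaip1 in neutrophils was not, at an adjusted p of 0.112), 0 members in summed marrow, and 2857 genes over all classes. Deviations of mice with the same number correlated between −0.19 and 0.20 over the classes, so the numbers were not taken as pairs. Crossed numbers gave the 8 and 5563 calls above.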
